A study of Homo sapiens with 4 samples.

Results

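The genes described here were 51 interferon-stimulated genes, together with the receptors and transcription factors that switch such genes on. They were picked by gene name with no cut on a measured value, although earlier results of these data were known when the list was made. Of the 51 genes, 47 had a row among the 28412 genes of the deposited table, and the other 4 (IFI44, IFI44L, MX1 and OAS2) were not analysed here. For testing, a gene had to average 1 FPKM or more across libraries, which 29 of the 47 genes did, while 18 stayed below. FPKM counts fragments after dividing by gene length and by library depth, so levels of different genes can be compared on it. RNA-seq was performed on total RNA from cells labelled NB4, a human acute promyelocytic leukemia line, a label that the marker genes given further on did not bear out. In 2 libraries the cells carried the lentiviral control vector sh-NC, which the labels describe as no treatment. In the other 2 libraries they carried the lentiviral vector sh-LDB1, an shRNA against LDB1, the adaptor of a transcription complex that holds enhancers and promoters together. Both vectors belonged to the pLKO.1 system and were used with puromycin selection, several shRNAs against LDB1 had been made, and the sources do not say which of them was sequenced. The labels do not say whether replicates came from separate cultures, so each p-value measures only the spread between these libraries.

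Interferons are secreted proteins that warn cells of infection. Type I interferons bind the receptor pair IFNAR1 and IFNAR2, and interferon gamma binds IFNGR1 and IFNGR2. The kinases JAK1, TYK2 and JAK2 then activate STAT proteins. STAT2 acts in a complex with IRF9 on a promoter element called the interferon-stimulated response element (ISRE), and interferon gamma acts through the gamma-activated site (GAS). The induced proteins sense viral RNA, block entry and translation, cut RNA, or attach the small ubiquitin-like protein ISG15 to other proteins. Many of these genes keep a basal level in cells that have met no interferon, and the basal level differs between cell types.

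The ISRE is the sequence feature that unites many of these genes, so 5 promoters that carried it are shown, 3 of genes that were higher in sh-LDB1 and 2 of genes that were lower. Each line gives the 160 bases before the start of the RefSeq transcript, 5′ to 3′ on the strand of the gene. Capitals mark whole matches to the ISRE core, GAAA and a second GAAA with any 2 bases between them, on either strand, and 2 matches may overlap. The sequences are from RefSeq (GRCh38.p14). They lie at chr1:1013337-1013496 (plus strand) for ISG15, chr1:27672193-27672352 (minus strand) for IFI6, chr19:17405631-17405790 (minus strand) for BST2, chr11:313880-314039 (plus strand) for IFITM1 and chr2:6877617-6877776 (plus strand) for RSAD2.
ISG15: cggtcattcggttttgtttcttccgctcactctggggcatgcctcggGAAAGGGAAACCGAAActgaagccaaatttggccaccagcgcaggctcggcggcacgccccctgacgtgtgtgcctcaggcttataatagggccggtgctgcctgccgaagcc
IFI6: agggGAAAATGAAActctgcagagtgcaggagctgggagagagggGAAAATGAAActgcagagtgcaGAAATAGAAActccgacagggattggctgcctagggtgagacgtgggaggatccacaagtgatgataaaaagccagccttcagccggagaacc
BST2: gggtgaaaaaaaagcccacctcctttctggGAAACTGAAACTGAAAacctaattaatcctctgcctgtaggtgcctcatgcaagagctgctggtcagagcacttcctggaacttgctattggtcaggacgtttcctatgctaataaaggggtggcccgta
IFITM1: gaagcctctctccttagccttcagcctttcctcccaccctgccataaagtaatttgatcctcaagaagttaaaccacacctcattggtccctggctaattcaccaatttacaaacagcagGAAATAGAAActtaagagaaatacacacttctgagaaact
RSAD2: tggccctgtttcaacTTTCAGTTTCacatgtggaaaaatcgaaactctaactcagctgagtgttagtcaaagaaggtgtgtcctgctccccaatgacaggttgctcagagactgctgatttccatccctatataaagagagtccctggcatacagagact
ISG15 and BST2 each held 2 overlapping matches, IFI6 held 3 separate ones, and RSAD2 held its match on the opposite strand. A further RSAD2 window, at another transcript start, held no ISRE core and is not shown. IFITM1 had 2 matches in its window, of which 1 ran across the transcript start and is not shown. Windows from 250 bases before to 50 bases after the start were available for 35 of the 47 genes, and 12 genes, IRF7, USP18 and GBP2 among them, had none. The ISRE core was found in 21 of the 35 genes and the GAS core TTCNNNGAA in 8, where a gene counted if any of its windows held the core. Counted by window, 46.9% of the 49 windows of these genes held the ISRE core, against 3.57% of all 35116 promoter windows. The GAS core was present in 18.4% of their windows, against 7.66% of all windows. A match is a description of letters and was not tested for binding.

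The knockdown was checked first. LDB1 measured 135 and 120.1 FPKM with sh-NC, against 10.2 and 9.47 FPKM with sh-LDB1. The log2 fold change was -3.56 ± 0.08 (SE, n = 2 per group, limma, Benjamini-Hochberg adjusted p = 6.93e-05). Replicates correlated at 0.985 (sh-NC) and 0.984 (sh-LDB1) on the log2 scale across genes, and libraries of different groups at 0.856 to 0.863. Reads recovered from the FPKM summed to between 14296014 and 16570478 per library. Markers of the labelled cell type were weak and erythroid markers were high, so the identity of the line in these libraries is in doubt. The paper reports that its lines were authenticated by short tandem repeat profiling, and its NB-4 sample matched the reference exactly. Whether that sample came from the culture sequenced here is not stated. Of 10 promyelocytic markers, 8 had a row, MPO and CTSG had none, ELANE was listed at 0 in 3 libraries, and the 8 together came to 11.7 to 13.1 FPKM in sh-NC and 37.9 to 41.4 FPKM in sh-LDB1. The 12 erythroid markers, the globins among them, summed to 3973 and 4140 FPKM in sh-NC and to 388 and 352 FPKM in sh-LDB1, and all 11 that were tested fell. Whether fewer cells of a type or less RNA per cell lay behind such a change cannot be told apart in bulk RNA. In monocyte and macrophage markers, 4 of 8 had a row and their sum stayed between 0.196 and 0.680 FPKM. In lymphoid markers, 6 of 8 had a row and their sum was 22.0 to 24.5 FPKM in sh-NC and 47.8 to 50.8 FPKM in sh-LDB1, most of it CD3D, while CD2 and MS4A1 had no row. The part of these cell type markers in the interferon-stimulated genes was not tested.

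Results showed that interferon-stimulated genes mostly stood higher in the sh-LDB1 libraries, with a minority lower. The 47 genes together summed to 482 and 479 FPKM with sh-NC and to 614 and 632 FPKM with sh-LDB1. Their median level was 1.28 and 1.26 FPKM in sh-NC and 2.36 and 2.38 FPKM in sh-LDB1. Genes were called at an adjusted p below 0.05 with a fitted fold above 2 or below 0.5, both from limma on log2(FPKM + 1), a scale on which the change of low genes is understated. IRF7, GBP2, IFI6, IFI35, UBE2L6, USP18 and ISG15 were called higher, which made 7 of the 29 tested genes (24.1%), and 0 were called lower. Over all 13300 genes tested, 9.5% were called higher and 10.3% lower. With the adjusted p alone, 20 of the 29 rose and 6 fell, against 29.9% and 37.4% of all genes in these directions, and 89.7% of the 29 passed in either direction against 67.4% of all genes. The 6 that fell were IFITM1, DTX3L, RSAD2, ADAR, IFNGR2 and SP100, and IFNGR1, EIF2AK2 and PARP9 did not pass. Both sh-LDB1 libraries lay above both sh-NC libraries for 20 of the 29 genes and below them for 7. Over all genes tested these shares were 38.3% and 46.3%, or 84.6% in either direction. The median log2 fold change was 0.56 over the 29 genes and -0.08 over all genes tested. When the summed FPKM of every library was set equal, these medians were 0.68 and 0.07, and the split of all called genes turned from 1264 higher and 1371 lower to 1628 higher and 995 lower. Of the 29, GBP2, DHX58, IFIT3 and IFI27 passed the filter only through their sh-LDB1 level. Among the 25 that averaged 1 FPKM or more in each group, 6 were called higher and 0 lower. The same cut was not applied to all genes, so no share stands beside this count.

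**Figure D1:**
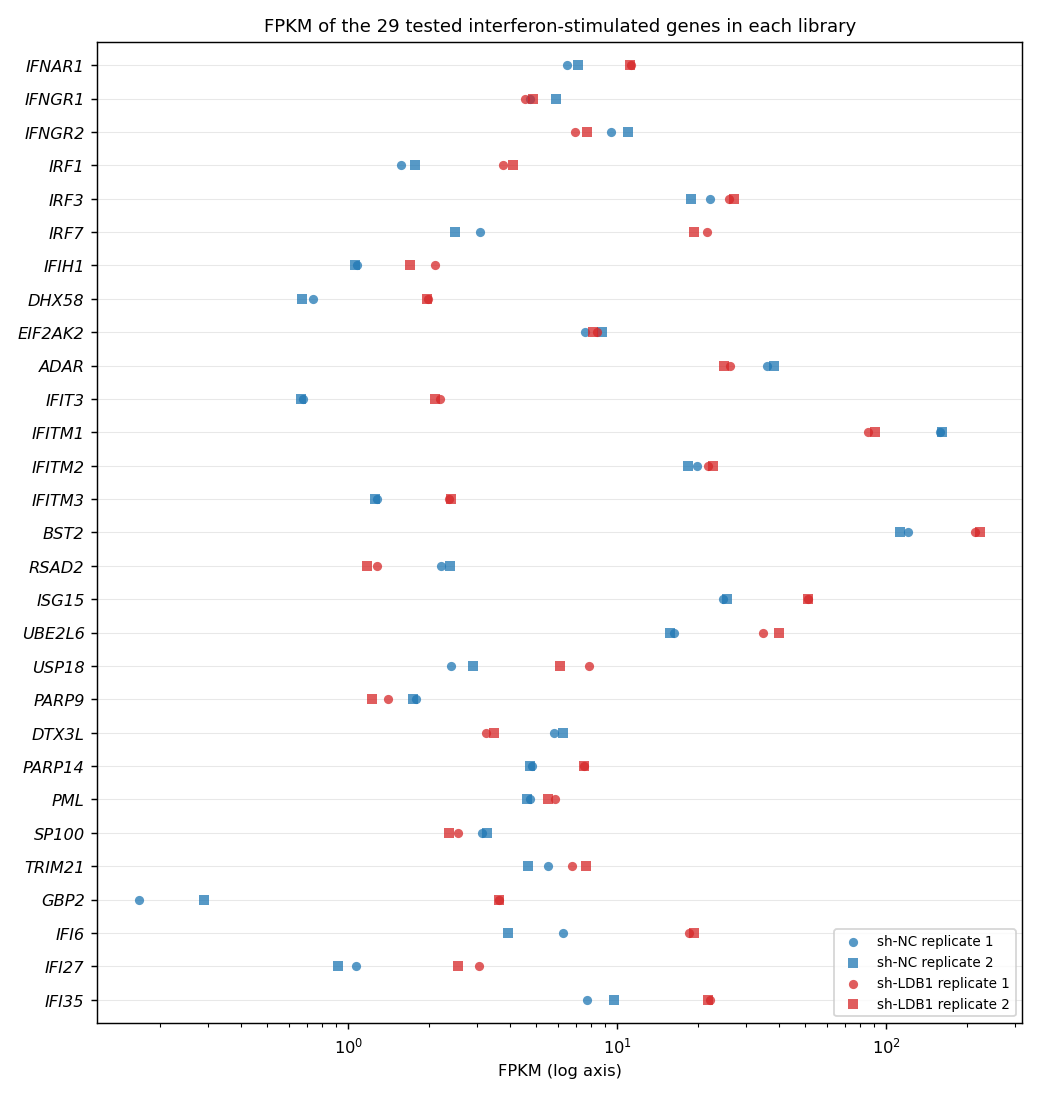
FPKM (horizontal log axis) of the 29 tested interferon-stimulated genes, ordered by role, with 1 point per library (blue for sh-NC, red for sh-LDB1, circle for replicate 1 and square for replicate 2). The red points lie to the right of both blue points in 20 genes and to the left in 7, and the groups overlap in IFNGR1 and EIF2AK2.

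The receptors did not move as one group. IFNAR1, the first chain of the type I interferon receptor, was at 6.51 and 7.14 FPKM with sh-NC and 11.3 and 11.2 FPKM with sh-LDB1. It rose by 0.64 ± 0.06 on the log2 scale (SE, limma, adjusted p = 0.00112), and the groups did not overlap. IFNAR2, the second chain, stayed below the filter, at 0.161 and 0.323 FPKM in sh-NC and 0.555 and 0.516 FPKM in sh-LDB1. Of the 2 chains of the interferon gamma receptor, 1 fell and 1 did not pass. IFNGR2, its signalling chain, was at 9.48 and 10.95 FPKM with sh-NC and 6.98 and 7.73 FPKM with sh-LDB1, a log2 fold change of -0.42 (adjusted p = 0.0141, limma). With the summed FPKM set equal that adjusted p was 0.0589, and without sh-LDB1 replicate 1 it was 0.0718. IFNGR1, the ligand-binding chain, was at 4.75 and 5.90 FPKM with sh-NC and 4.53 and 4.86 FPKM with sh-LDB1, and its log2 fold change of -0.15 had a 95% interval from -0.44 to 0.15. IFNAR1 and IFNGR2 are neighbours on chromosome 21, 43548 bases apart on the same strand, and they moved in opposite directions. IFNGR2 overlaps TMEM50B on the other strand, and whether counting used the strand was not stated. Interferon genes themselves gave little to measure: of 22 ligands searched, only IFNK had a row, with 0.0542 and 0.119 FPKM in the controls and 0 in both sh-LDB1 libraries.

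Among the transcription factors, IRF7 stood out. IRF7, which drives type I interferon genes and is itself interferon-induced, is ENSG00000185507 at chr11:612553-615983 (GRCh38, minus strand). It measured 3.08 and 2.503 FPKM with sh-NC, against 21.6 and 19.2 FPKM with sh-LDB1. The means were 2.79 ± 0.41 and 20.4 ± 1.70 FPKM (SD, n = 2), which differ 7.31-fold, and no library of one group came near the other. Its log2 fold change of 2.50 ± 0.10 (SE, limma, adjusted p = 0.000146) was the largest of the 29 genes in this fit. IRF1, an early interferon gamma target that activates many of the other genes, was at 1.57 and 1.77 FPKM with sh-NC and 3.76 and 4.10 FPKM with sh-LDB1, and rose by 0.89 on the log2 scale (limma, adjusted p = 0.00138). IRF3, the factor that RNA and DNA sensors activate first, was at 22.1 and 18.7 FPKM and then at 26.1 and 27.1 FPKM, a rise of 0.37 (limma, adjusted p = 0.0190). This smaller rise lost its call without either sh-LDB1 library, at adjusted p-values of 0.0663 and 0.0880. IRF5, a factor of inflammatory genes in myeloid cells, was below the filter, at 0.0141 and 0 FPKM in sh-NC and 0.2996 and 0.287 FPKM in sh-LDB1, from 1, 0, 21 and 19 recovered reads. IRF9, the DNA-binding partner of STAT2, was at 0.798 and 0.786 FPKM with sh-NC and 0.494 and 0.854 FPKM with sh-LDB1, and its groups overlapped. Thus IRF7, IRF1 and IRF3 rose at the adjusted p, as 29.9% of all genes tested did, whereas IRF9 gave no separation.

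**Figure D2:**
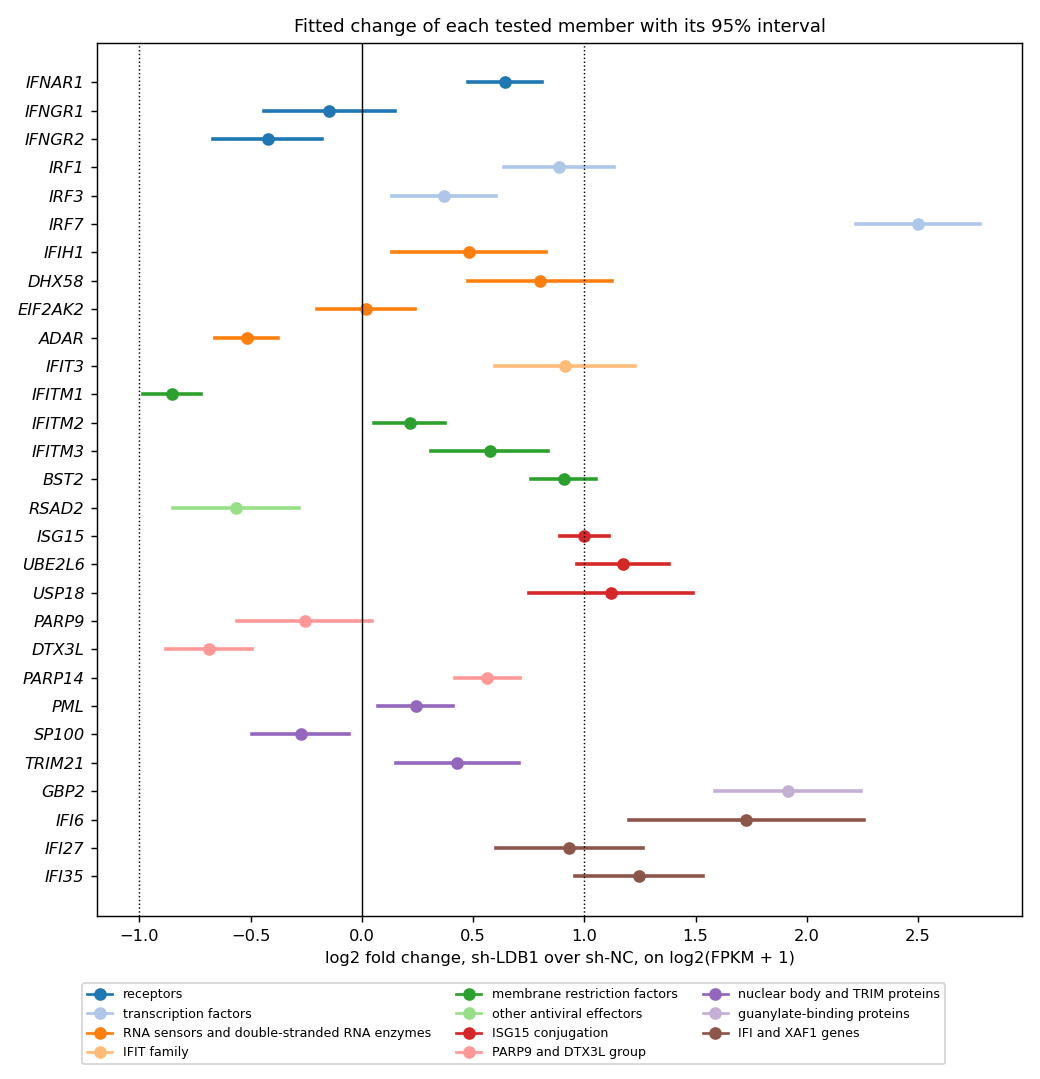
Log2 fold change of sh-LDB1 over sh-NC on log2(FPKM + 1) for the 29 tested genes (points) with 95% intervals (bars), coloured by role; dotted lines mark a fold of 2 and of 0.5. IRF7 lies farthest right at 2.50, IFITM1 farthest left at -0.85, and the intervals of IFNGR1, EIF2AK2 and PARP9 include 0.

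Genes that sense or process double-stranded RNA showed both directions. IFIH1 (MDA5), a sensor of long double-stranded RNA, was at 1.08 and 1.06 FPKM with sh-NC and 2.10 and 1.69 FPKM with sh-LDB1, a rise of 0.48 (limma, adjusted p = 0.0277). Its call was lost when any of the 4 libraries was left out, with adjusted p-values from 0.0565 to 0.148. DHX58 (LGP2), a helicase that tunes such sensing, was at 0.740 and 0.671 FPKM with sh-NC and 1.98 and 1.96 FPKM with sh-LDB1, and rose by 0.80 (limma, adjusted p = 0.00438). ADAR, the enzyme that edits adenosine to inosine in double-stranded RNA, was among the well-expressed members. It was at 35.9 and 38.1 FPKM with sh-NC and 26.2 and 25.0 FPKM with sh-LDB1, and it fell by 0.52 on the log2 scale (limma, adjusted p = 0.00131). EIF2AK2 (PKR), the kinase that stops translation on binding double-stranded RNA, was at 7.57 and 8.77 FPKM with sh-NC and 8.39 and 8.14 FPKM with sh-LDB1. Its groups overlapped, and the log2 fold change of 0.02 had a 95% interval from -0.20 to 0.24. The oligoadenylate synthetases OAS1 and OAS3, enzymes that double-stranded RNA activates, and the related OASL stayed below the filter, and OAS2 had no row. OAS3 was at 0.352 and 0.288 FPKM with sh-NC and 0.915 and 0.721 FPKM with sh-LDB1. OAS1 was at 0 and 0.0274 FPKM and then at 0.0631 and 0.107 FPKM, and OASL was seen in sh-LDB1 replicate 1 alone, at 0.0355 FPKM.

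The IFIT proteins bind viral RNA that lacks the cap marks of the host, and their genes sit side by side on chromosome 10. IFIT3, the only one tested, was at 0.679 and 0.668 FPKM with sh-NC and 2.20 and 2.10 FPKM with sh-LDB1, a rise of 0.91 on the log2 scale (limma, adjusted p = 0.00267). IFIT1 was at 0.0670 and 0.0147 FPKM with sh-NC and 0.230 and 0.258 FPKM with sh-LDB1. IFIT2 was at 0 and 0.0827 FPKM and then at 0.228 and 0.403 FPKM. In these 3 genes both sh-LDB1 libraries lay above both sh-NC libraries, and all 3 overlap LIPA on the other strand. Such separation held for 38.3% of all genes tested and for 33.4% of all genes below the filter. IFIT5 was seen in 1 library only, sh-LDB1 replicate 1, at 0.0622 FPKM.

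The highest levels among the 47 genes belonged to membrane proteins. BST2 (tetherin) holds budding virus particles on the cell surface. It was at 120.4 and 112 FPKM with sh-NC and 214 and 224 FPKM with sh-LDB1, and rose by 0.91 ± 0.05 on the log2 scale (SE, limma, adjusted p = 0.000304). It stayed just short of a 2-fold change in this fit and passed it when libraries were rescaled to equal summed FPKM (1.08) or by the median of ratios (1.006). The IFITM proteins block the fusion of virus and endosome, and the 3 genes lie within 1 cluster of chromosome 11. IFITM1 was at 158 and 162 FPKM with sh-NC and 85.4 and 91.1 FPKM with sh-LDB1, so that both knockdown libraries were far below both controls. Its log2 fold change was -0.85 ± 0.05 (SE, limma, adjusted p = 0.000269). IFITM2 lies 643 bases before IFITM1 and was at 19.8 and 18.3 FPKM with sh-NC and 21.7 and 22.8 FPKM with sh-LDB1. Its rise of 0.21 (limma, adjusted p = 0.0314) was lost with the replicate number as a block (0.0565) and without sh-NC replicate 2 (0.0806), sh-LDB1 replicate 1 (0.0837) or sh-LDB1 replicate 2 (0.157). IFITM3, 4403 bases beyond IFITM1 on the other strand, was at 1.28 and 1.26 FPKM and then at 2.36 and 2.40 FPKM, a rise of 0.57 (limma, adjusted p = 0.00665). Without sh-LDB1 replicate 2 the adjusted p was 0.0504. IFITM1 therefore fell between neighbours that rose, in each scaling tried. The IFITM genes share near-identical stretches, and how the counting divided reads among them was not stated, so these values are uncertain to that extent. IFITM1 and IFITM3 also overlap other genes on the opposite strand.

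**Figure D3:**
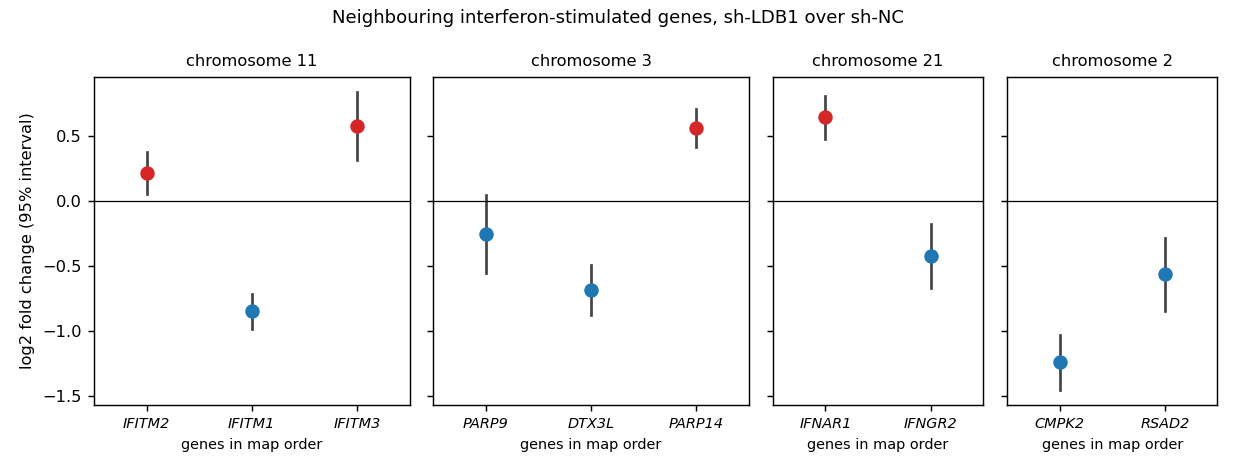
Log2 fold change with 95% interval (vertical axis, sh-LDB1 over sh-NC on log2(FPKM + 1)) of neighbouring interferon-stimulated genes in map order, red above and blue below 0. IFITM1 at -0.85 lies between IFITM2 at 0.21 and IFITM3 at 0.57; DTX3L at -0.69 contrasts with PARP14 at 0.56, and IFNAR1 at 0.64 with IFNGR2 at -0.42, whereas CMPK2 and RSAD2 are both below 0.

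The remaining antiviral effectors were low. RSAD2 (viperin), an enzyme that makes a chain terminator of viral RNA synthesis, was the only one tested. It was at 2.21 and 2.38 FPKM with sh-NC and 1.28 and 1.18 FPKM with sh-LDB1, and it fell by 0.57 on the log2 scale (limma, adjusted p = 0.00878). Its neighbour CMPK2, a mitochondrial nucleotide kinase that overlaps it on the other strand of chromosome 2, was at 8.40 and 9.38 FPKM and then at 3.28 and 3.06 FPKM, a log2 fold change of -1.25 (limma, adjusted p = 0.000338). Whether counting used the strand was not stated, so reads of this pair cannot be told apart where they overlap. ISG20, an RNA exonuclease, was at 0.210 and 0.221 FPKM with sh-NC and 0.890 and 0.781 FPKM with sh-LDB1. SAMD9 and SAMD9L, restriction factors of poxviruses, lie 12032 bases apart on chromosome 7. SAMD9 was at 0.496 and 0.653 FPKM and then at 1.04 and 0.868 FPKM. SAMD9L was at 0.208 and 0.238 FPKM and then at 0.770 and 0.611 FPKM. The sh-LDB1 libraries were above the sh-NC libraries in all of ISG20, SAMD9 and SAMD9L, as in 33.4% of all genes below the filter. MX2, a GTPase that acts on incoming viral capsids, was seen only in sh-LDB1 replicate 1, at 0.0335 FPKM.

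In the ISG15 system all 3 tested genes were called higher, against 9.5% of all genes tested. ISG15, the ubiquitin-like modifier (ENSG00000187608, chr1:1001138-1014540, plus strand), was at 24.8 and 25.5 FPKM with sh-NC and 51.3 FPKM in both sh-LDB1 libraries. The means were 25.1 ± 0.53 and 51.3 ± 0.004 FPKM (SD, n = 2), and the log2 fold change was 1.00 ± 0.04 (SE, limma, adjusted p = 0.000139). It lay at the fold threshold itself and dropped below it, to 0.98, without sh-NC replicate 1. UBE2L6, the enzyme that hands ISG15 on to its ligases (ENSG00000156587, chr11:57551656-57568284, minus strand), was at 16.3 and 15.6 FPKM with sh-NC and 34.8 and 39.9 FPKM with sh-LDB1. The means were 15.95 ± 0.43 and 37.3 ± 3.59 FPKM (SD, n = 2), with a log2 fold change of 1.17 ± 0.08 (SE, limma, adjusted p = 0.000388). USP18 removes ISG15 from proteins and also dampens the type I receptor (ENSG00000184979, chr22:18150118-18177397, plus strand). It was at 2.41 and 2.90 FPKM with sh-NC and 7.83 and 6.12 FPKM with sh-LDB1, with means of 2.65 ± 0.35 and 6.97 ± 1.21 FPKM (SD, n = 2). On the log2 scale it rose by 1.12 ± 0.14 (SE, limma, adjusted p = 0.00229), it was no longer past the fold threshold without sh-LDB1 replicate 1, and near-identical copies of USP18 leave its reads uncertain. The groups did not overlap in any of the 3 genes, as in 84.6% of all genes tested. HERC5, the main ISG15 ligase, was nearly silent, at 0 in 3 libraries and 0.0655 FPKM in sh-LDB1 replicate 1, and HERC6 was at 0.0107 and 0.0351 FPKM with sh-NC and 0.0646 and 0.160 FPKM with sh-LDB1. Higher ISG15, UBE2L6 and USP18 transcripts were thus measured with little transcript of HERC5 or HERC6.

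PARP9 and DTX3L form a complex that modifies chromatin and viral proteins, and their genes overlap head to head on chromosome 3. DTX3L, the ubiquitin ligase of the pair, was at 5.82 and 6.29 FPKM with sh-NC and 3.27 and 3.49 FPKM with sh-LDB1. It fell by 0.69 on the log2 scale (limma, adjusted p = 0.00143). PARP9 was at 1.78 and 1.74 FPKM with sh-NC and 1.40 and 1.23 FPKM with sh-LDB1. The groups did not overlap, but its log2 fold change of -0.26 did not pass (adjusted p = 0.107, limma), with a 95% interval from -0.56 to 0.05. With voom on recovered reads, or without the trend of the prior variance, PARP9 passed at adjusted p-values of 0.00890 and 0.0314. As in CMPK2 and RSAD2, reads of the overlap cannot be assigned. PARP14, a mono-ADP-ribosyltransferase of the same cluster 105635 bases past DTX3L, was at 4.80 and 4.76 FPKM with sh-NC and 7.54 and 7.55 FPKM with sh-LDB1, and it rose by 0.56 (limma, adjusted p = 0.00110).

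The 3 tested members among nuclear body and TRIM genes, PML, SP100 and TRIM21, stayed within a fold of 2. PML builds the nuclear bodies and is the partner of RARA in the fusion that defines acute promyelocytic leukemia. It was at 4.72 and 4.62 FPKM with sh-NC and 5.88 and 5.53 FPKM with sh-LDB1, and rose by 0.24 (limma, adjusted p = 0.0259). SP100, another resident of the nuclear bodies, was at 3.13 and 3.27 FPKM with sh-NC and 2.57 and 2.38 FPKM with sh-LDB1, and fell by 0.27 (limma, adjusted p = 0.0378). Both calls were lost when any of the 4 libraries was left out, at adjusted p-values of 0.0699 to 0.142 for PML and 0.0918 to 0.165 for SP100. SP100 also lost it under both rescalings, at 0.171 and 0.0863. TRIM21, the cytosolic antibody receptor, was at 5.54 and 4.68 FPKM and then at 6.76 and 7.67 FPKM, a rise of 0.43 (limma, adjusted p = 0.0196), which was lost without sh-NC replicate 2 (0.0629) or sh-LDB1 replicate 2 (0.0910). TRIM22 was below the filter, at 0.103 and 0.0676 FPKM with sh-NC and 0.487 and 0.351 FPKM with sh-LDB1, and overlaps TRIM5 on the other strand.

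GBP2, a guanylate-binding GTPase that coats intracellular bacteria and vacuoles, went from near absence to a low level (ENSG00000162645, chr1:89106132-89150456, minus strand). It was at 0.167 and 0.292 FPKM with sh-NC and 3.62 and 3.64 FPKM with sh-LDB1. The means were 0.230 ± 0.09 and 3.63 ± 0.02 FPKM (SD, n = 2), which differ 15.8-fold. On log2(FPKM + 1) the change was 1.92 ± 0.12 (SE, limma, adjusted p = 0.000354), and with a pseudocount of 0.1 in place of 1 it was 3.53. GBP1, its neighbour 40771 bases away, was at 0 in both sh-NC libraries and at 0.0125 and 0.0132 FPKM in sh-LDB1, from 1 recovered read each. Both sh-LDB1 libraries were above both sh-NC libraries in the pair, but for GBP1 the reads allowed no fold change. That order held for 38.3% of all genes tested and for 33.4% of all genes below the filter.

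IFI6, IFI27 and IFI35 rose, and XAF1, which was too low to test, was seen only in the knockdown. IFI6, a small membrane protein that limits flavivirus replication (ENSG00000126709, chr1:27666064-27672212, minus strand), was at 6.29 and 3.92 FPKM with sh-NC and 18.4 and 19.3 FPKM with sh-LDB1. The means were 5.10 ± 1.67 and 18.8 ± 0.60 FPKM (SD, n = 2), with a log2 fold change of 1.73 ± 0.20 (SE, limma, adjusted p = 0.00184). IFI35, a leucine zipper protein that binds NMI (ENSG00000068079, chr17:43006740-43014456, plus strand), was at 7.74 and 9.69 FPKM with sh-NC and 22.1 and 21.7 FPKM with sh-LDB1. The means were 8.71 ± 1.38 and 21.9 ± 0.27 FPKM (SD, n = 2), with a log2 fold change of 1.25 ± 0.11 (SE, limma, adjusted p = 0.000798). In both genes the sh-NC replicates were further apart than the sh-LDB1 replicates. The groups did not overlap in either gene, as in 84.6% of all genes tested. IFI27, a mitochondrial protein widely used as a marker of interferon exposure, was at 1.07 and 0.916 FPKM with sh-NC and 3.06 and 2.57 FPKM with sh-LDB1, and rose by 0.93 (limma, adjusted p = 0.00287). XAF1, a pro-apoptotic antagonist of XIAP, was at 0 in both sh-NC libraries and at 0.113 and 0.0999 FPKM in sh-LDB1. Its 22 reads there stand at least 7.28-fold above a floor of 3 reads over the sh-NC group, after scaling for depth. At the fold threshold, ISG15 (1.00) and USP18 (1.12) lay just inside, while IFI27 (0.93) and IFIT3 (0.91) lay just outside.

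**Figure D4:**
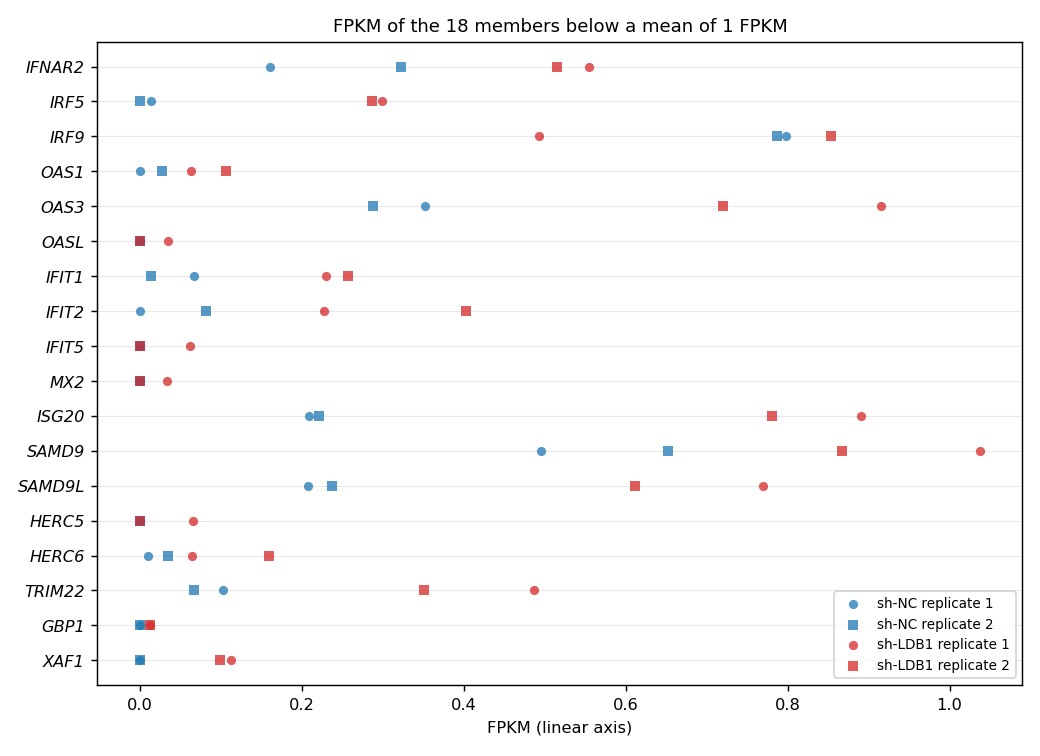
FPKM (horizontal linear axis) of the 18 interferon-stimulated genes with a mean below 1 FPKM, 1 point per library (blue for sh-NC, red for sh-LDB1, circle for replicate 1 and square for replicate 2). In 13 genes both red points lie to the right of both blue points, as in 33.4% of all genes below the filter; OASL, IFIT5, MX2 and HERC5 have 3 libraries at 0, and IRF9 overlaps.

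Below the filter no test was made. In 13 of these 18 genes both sh-LDB1 libraries were above both sh-NC libraries, and in 0 both were below. Over all 15112 genes below the filter, these shares were 33.4% and 15.6%. Of the 47 genes, 8 and 7 were listed at 0 in sh-NC replicates 1 and 2, against 0 and 4 in sh-LDB1 replicates 1 and 2, and 26 and 25 reached 1 FPKM, against 30 and 29. The 4 genes at 0 in all but sh-LDB1 replicate 1 rest on few reads, 3 for OASL, 4 for IFIT5, 4 for HERC5 and 7 for MX2, and these numbers are approximate. Overlap with another gene of the table was found for 19 of the 47 genes, while 28 had none. Of the genes called higher, IRF7, GBP2, IFI35, UBE2L6 and USP18 had none, while ISG15 and IFI6 overlapped genes on the other strand. Among the other genes, IRF1, IRF3, IFNGR2, IFITM1 and IFITM3 also overlapped genes on the other strand. The use of strand was not stated, so reads of such overlaps cannot be assigned.

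The direction of change and the promoter letters were set side by side as a description. Of 13 genes that rose and had a promoter window, 9 held the ISRE core and 5 the GAS core. Of 6 that fell, 3 held the ISRE core (IFITM1, RSAD2 and DTX3L) and 1 the GAS core (IFITM1). Of 3 that did not pass, 2 held the ISRE core and 0 the GAS core, and of 13 below the filter, 7 and 2 did so. The ISRE core was thus present in genes of both directions, as the printed promoters of BST2 and IFITM1 show, and with so few genes no difference between the directions was read from it.

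To see whether other parts of the interferon pathway moved, 3 further lists were counted in the same fit. The signal relay held 16 genes, 13 with a row and 11 tested, and its median log2 fold change was 0.35. Of the 11, 7 rose and 1 fell at the adjusted p alone, against 29.9% and 37.4% of all genes tested. The 72.7% that passed in either direction were near the 67.4% of all genes tested, and the 18.2% called past the fold threshold were near the 19.8% of all. Past the fold threshold, STAT2 was the 1 gene higher and JAK2 the 1 lower. STAT2, which carries the activation domain of the type I complex, was at 9.41 and 10.1 FPKM with sh-NC and 31.7 and 31.1 FPKM with sh-LDB1, a log2 fold change of 1.59 (limma, adjusted p = 0.000108). JAK2, the kinase of IFNGR2, was at 10.2 and 9.88 FPKM and then at 4.56 and 4.37 FPKM, a log2 fold change of -1.01 (limma, adjusted p = 0.000252). TYK2, a kinase of the type I receptor, rose by 0.32 (limma, adjusted p = 0.00221), and JAK1, which serves both receptors, rose by 0.35 (limma, adjusted p = 0.00939). Of the type I chain and its relay, IFNAR1, TYK2 and STAT2 thus rose, while IFNAR2 and IRF9 stayed below the filter. IFNGR2 and JAK2 of the interferon gamma receptor fell and IFNGR1 did not pass, but JAK1, which serves both receptors, rose. IRF1, an early interferon gamma target, also rose. A difference between the pathways was not tested.

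Nucleic acid sensing, the pathway that leads to interferon production, held 19 genes, 17 with a row and 10 tested. At the adjusted p alone 7 rose and 1 fell, against 29.9% and 37.4% of all genes tested, and the median log2 fold change was 0.70. In either direction 80.0% passed, against 67.4% of all genes tested, and 5 of the 10 were called past the fold threshold, against 19.8% of all genes. Past the fold threshold 4 were higher (STING1, TRIM25, IFI16 and IKBKE) and 1, TRAF3, was lower. STING1, the adaptor of cytosolic DNA sensing, was at 14.8 and 14.3 FPKM with sh-NC and 50.3 and 48.3 FPKM with sh-LDB1, a log2 fold change of 1.69 (limma, adjusted p = 8.31e-05). IFI16, a DNA sensor, was at 0.350 and 0.231 FPKM and then at 5.05 and 5.27 FPKM, a log2 fold change of 2.26 (limma, adjusted p = 0.000181). TRIM25, the ligase that activates RIG-I, was at 10.7 and 10.4 FPKM and then at 26.3 and 25.7 FPKM. IKBKE, a kinase of IRF3 and IRF7, was at 2.72 and 2.29 FPKM and then at 10.03 and 8.82 FPKM. TRAF3, an adaptor upstream of these kinases, was at 5.80 and 5.29 FPKM and then at 2.04 and 2.14 FPKM. TRAF3 was named after its values were seen.

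Another 47 interferon-stimulated genes, 43 with a row and 28 tested, moved in both directions. At the adjusted p alone 11 of the 28 rose and 10 fell, against 29.9% and 37.4% of all genes tested. In either direction 21 of the 28 passed, against 67.4% of all genes tested. The median log2 fold change of the 28 was 0.07, against -0.08 over all genes tested. Past the fold threshold 3 were higher (HELZ2, LGALS3BP and PARP10) and 4 lower (TRIM14, PNPT1, CNP and CMPK2), so 25.0% of the 28 were called in either direction, against 19.8% of all genes tested. LGALS3BP, a secreted glycoprotein, was at 2.09 and 1.99 FPKM with sh-NC and 20.1 and 21.8 FPKM with sh-LDB1. HELZ2, a helicase that coactivates nuclear receptors, was at 2.58 and 2.54 FPKM and then at 18.3 and 17.9 FPKM. TRIM14, an adaptor at mitochondria, was at 13.6 and 13.4 FPKM and then at 3.64 and 3.92 FPKM. PNPT1, a mitochondrial exoribonuclease, was at 20.9 and 23.1 FPKM and then at 6.08 and 6.41 FPKM. Genes of this class therefore moved both up and down, and the rise seen in most of the 29 genes was not shared by every interferon-stimulated gene that was measured.

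**Figure D5:**
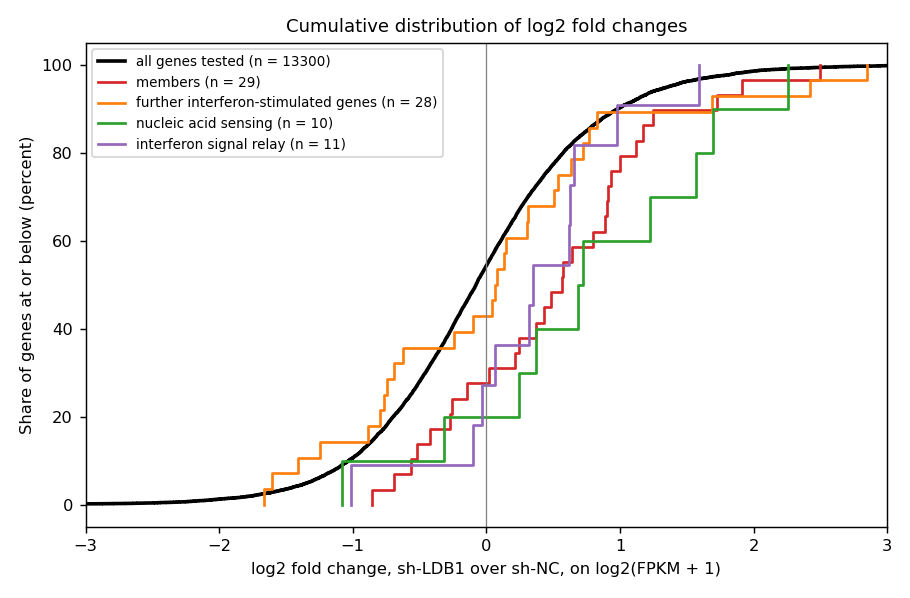
Share of genes (vertical axis, percent) at or below each log2 fold change of sh-LDB1 over sh-NC (horizontal axis, log2(FPKM + 1) scale) for all 13300 genes tested (black), the 29 interferon-stimulated genes (red), 28 further ones (orange), 10 sensing genes (green) and 11 signal relay genes (purple). The medians are -0.08, 0.56, 0.07, 0.70 and 0.35, and the lists are shown as a description with no test.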

How the data were processed

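The 4 libraries were grouped by the labels into sh-NC and sh-LDB1, with 2 replicates each. The authors mapped filtered reads with HISAT and deposited 1 table of FPKM. The submitters' processing notes name HISAT2 2.0.5 and hg38. The annotation, counting tool and use of strand are not given in the sources used here. The table has 0 columns without a sample. The authors' own calls by DESeq2 were not used.

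Genes that averaged 1 FPKM or more were tested on log2(FPKM + 1), with a pseudocount of 1, by limma 3.58.1 (lmFit, eBayes with a trend, R 4.3.3) and Benjamini-Hochberg adjustment over all 13300 genes. With 2 against 2 libraries an exact permutation test of 1 gene cannot go below p = 0.333, so none was used. Whole reads were recovered from the FPKM for 28002 genes, 99.3% of those annotated, starting from GENCODE 44 gene lengths. For each gene a whole length was chosen that brought every library within 0.01 of a whole number of reads. The chosen length equalled the GENCODE length for 47.1% of these genes and lay within 10% of it for 79.0%. The recovered reads are therefore approximate. The deposited FPKM had been divided by scaled totals that were not the sums of these reads. Motifs and lists were counted with pandas 2.3.3 and numpy 2.4.6 (Python 3.11.15), and the fits were tested on simulated data. Replicates differed by more than read sampling noise (chi-square per gene 4.12 in sh-NC and 2.13 in sh-LDB1).

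The members and all gene lists were chosen with earlier results of these data known, and some pathway genes are not reported here. All 51 members are accounted for. Members past the fold threshold get full statistics, the others their values, and each further list names up to 4 genes past the threshold with the smallest adjusted p. Genes of those lists named beyond these 4, and TYK2 and JAK1, were named after their values were seen. Alternatives covered the pseudocount, the filter, scaling, the variance prior, a replicate block, each library left out, limma's treat and voom on recovered reads.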

Additional observations from a re-analysis of the deposited data

How the results depend on the processing

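Among the 29 tested members and LDB1, no called gene reversed its direction in an alternative, while other genes were followed only as counts. The 7 members called higher became 11 with a pseudocount of 0.1 or 0.01 or with voom on recovered reads (DHX58, IFI27, IFIT3 and IRF1 added) and 11 with the summed FPKM set equal (BST2, IFI27, IFIT3 and IRF1 added). Calls over all genes grew as well. Those higher went from 1264 to 1697 and 1731 with these pseudocounts, 1733 with voom and 1628 with the summed FPKM set equal. Those lower went from 1371 to 1880 and 1921 with these pseudocounts and 1907 with voom, but to 995 with the summed FPKM set equal. The members called higher became 2 (IRF7 and GBP2) with treat, which tests against a fold of 2 itself. Leaving out 1 library gave 6 to 8: ISG15 was lost without sh-NC replicate 1, USP18 without sh-LDB1 replicate 1, and IFI27 was added without sh-LDB1 replicate 2. Members called lower stayed at 0 throughout. The members' median log2 fold change was 0.71 and 0.72 with pseudocounts of 0.1 and 0.01, 0.34 with no filter (47 genes), 0.43 with a filter of 5 FPKM (17 genes), 0.68 with the summed FPKM set equal, 0.64 with the median of ratios, 0.72 with voom, and 0.56 to 0.57 with 1 library left out. At the adjusted p alone, the filter of 5 FPKM left 12 higher and 3 lower, and leaving out 1 library left 14 to 18 higher and 4 to 5 lower. Besides treat, 8 members lost that call in at least 1 alternative. Over all genes, the filter of 5 FPKM gave 710 higher, treat gave 568 higher and 581 lower, and leaving out 1 library gave 1190 to 1360 higher and 1336 to 1450 lower. The share of lower among all called genes was 52.0%, against 37.9% with the summed FPKM set equal and 43.7% with the median of ratios. The pathway lists had 8 higher and 6 lower in all, 3 lower with treat, and 8 to 9 higher and 5 to 6 lower with 1 library left out. The log2 fold change of LDB1 ranged from -3.69 to -3.40 over all alternatives. Fewer genes were tested under the higher filter, and the cause of these shifts was not tested.

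The replicate numbers were not shown to pair the libraries (correlation of deviations 0.02). With the replicate number as a block, 7 members were called higher and 0 lower, 18 rose and 5 fell at the adjusted p alone, and IFITM2, PML and SP100 were the calls lost. Over all genes the block gave 1274 higher and 1386 lower, and the pathway lists kept 8 and 6. The precision of genes below 1 FPKM was limited by their few reads, and 2 libraries per group limit every interval.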
